A study of Arabidopsis thaliana with 3 samples.

Results

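The genes described here act in, or are controlled by, the small RNA pathways of Arabidopsis thaliana: the small RNA pathway genes AGO7 (AT1G69440) and SE (AT2G27100), the microRNA172 targets SNZ (AT2G39250) and SMZ (AT3G54990), and the microRNA395 target APS4 (AT5G43780). They were chosen by symbol in the table that pairs probe sets with genes, and are 5 of the 13356 named genes on the arrays. A gene counts as measured where a probe set is named for it alone. Each of the 5 was read by 1 probe set of the class designed to match a single transcript. Whole seedlings of 2 weeks were compared on 3 arrays, 1 each for a transgenic plant overexpressing DRB2, a transgenic plant overexpressing DRB3 and the wild type. All grew on half-strength MS medium, in days of 16 h light and 8 h dark at 22 °C. The labels give neither the promoter of the transgenes nor the number of plants or lines behind an array, and the design text submitted with the series concerns another gene, so the groups rest on the genotype label. There were no replicates, so no value below has an error or a p-value and no difference was tested.

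MicroRNAs are short RNAs cut from folded precursors by a Dicer enzyme that works with a partner protein carrying double-stranded RNA binding domains. An Argonaute protein then carries the microRNA to matching messenger RNAs, which are cleaved or translated less. DRB2 and DRB3 belong to the same family of double-stranded RNA binding proteins as the main Dicer partner HYL1, and DRB proteins are known in Arabidopsis to influence both which microRNAs are made and whether a target is cleaved or held back in translation. An array of messenger RNA can show the cleavage of a target as a lower transcript level, but not a block of its translation, and it reads no mature microRNA. No named probe set belonged to DRB2 or DRB3, so whether either transgene was expressed was not checked.

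Intensities are linear MAS5 values. Those under a common floor of 109 intensity units were treated as having no order and were raised to that floor before a ratio was taken. A gene is called higher or lower where the floored intensities of the arrays compared differ at least 2-fold, and a fold with 1 value under the floor is a lower bound. Levels are compared only across arrays for the same gene. In bulk seedlings, fewer cells that express a gene and less of its RNA per cell cannot be told apart.

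None of the 5 genes was at least 2-fold apart in any of the 3 comparisons. AGO7, SNZ and SMZ could not be, because they read too low on every array to reach 2-fold over the floor. Only SE and APS4 read high enough to pass the 2-fold threshold. Over all named genes, 0.943% passed that threshold in the DRB2 overexpressor against wild type, 2.97% in the DRB3 overexpressor against wild type and 1.19% in the DRB3 overexpressor against the DRB2 overexpressor. The gene counts behind these shares were 71 higher and 55 lower for DRB2 against wild type, 192 and 205 for DRB3 against wild type, and 77 and 82 for DRB3 against DRB2. With each array centred on its median the first and last of these splits turned to 55 higher and 74 lower, and to 90 and 62. The comparisons with wild type share 1 wild-type array, so a deviation of that array enters both. The members nearest to 2-fold were APS4 on the higher side and SNZ on the lower side, with APS4 nearly equal on both overexpressor arrays and SNZ under the floor on both. For the DRB2 overexpressor 2 of the 5 ratios were above 0, 2 below and 1 at 0, with a median log2 ratio of 0, and for the DRB3 overexpressor 3, 1 and 1, with a median of 0.12. The median over all named genes was 0 in both comparisons.

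**Figure D1:**
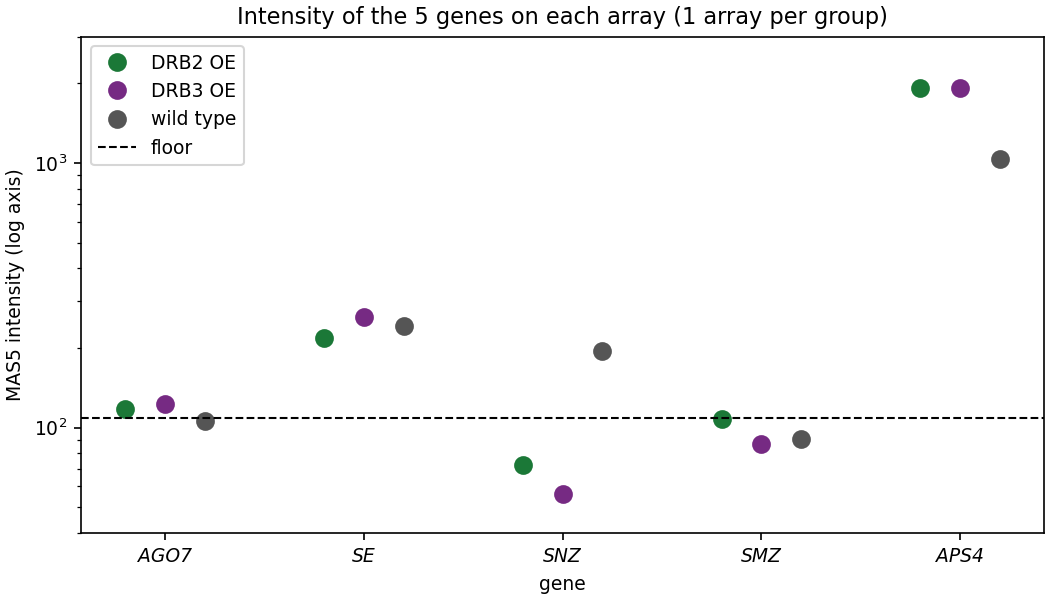
MAS5 intensity (log axis) of each of the 5 genes on the arrays of the DRB2 overexpressor, the DRB3 overexpressor and the wild type (DRB2 OE, DRB3 OE and wild type), 1 point per array. The dashed line is the floor of 109. APS4 read 1923 and 1922 in the overexpressors against 1037 in wild type, and SNZ was above the floor in wild type alone.

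Other properties of the arrays differed as well. The 3′ to 5′ ratio of the control transcripts was highest in wild type for 6 of 6 probe set pairs, with the DRB2 overexpressor between the other arrays in all 6. The gap to wild type varied: 1 GAPDH pair gave 5.77 in the DRB2 overexpressor, 3.89 in the DRB3 overexpressor and 9.31 in wild type, and 1 ubiquitin pair gave 4.61, 3.89 and 4.66 in the same order. The median poly(A) spike-in read 56.1, 171 and 223 in the same order. Of 4 listed root markers 2 were measured, EXPA7 and EXPA18. Their summed intensity was 374 in the DRB2 overexpressor, 597 in the DRB3 overexpressor and 236 in wild type. EXPA7 was under the floor in the DRB2 overexpressor and in wild type, and EXPA18 alone read 278, 439 and 184 in the same order. The 4 listed leaf markers were not among the named probe sets, but 7 of 7 named nuclear photosystem genes were above the floor on every array. The median intensity of those 7 was 18435 in the DRB2 overexpressor, 15904 in the DRB3 overexpressor and 14162 in wild type. Wild type was thus at one end for the 3′ to 5′ ratios, the spike-in, the root marker sum and the photosystem genes, as for APS4 and SNZ. The overexpressors also differed from each other in these measures. The part of these measures in the values of the 5 genes was not tested.

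AGO7 encodes an Argonaute protein that binds microRNA390 and starts the production of trans-acting small RNAs from TAS3, which in turn act on auxin response factor transcripts. It read 117 in the DRB2 overexpressor, 123 in the DRB3 overexpressor and 106 in wild type. These readings lay close to the floor, with wild type just under it. The floored log2 ratio was at least 0.11 for the DRB2 overexpressor and at least 0.18 for the DRB3 overexpressor. Between the overexpressors, with both values above the floor, the log2 ratio was 0.07. The auxin response factor genes ARF2, ARF3 and ARF4, the targets at the end of this pathway, were not among the named probe sets.

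SE encodes the zinc finger protein SERRATE, which works with the Dicer enzyme and HYL1 in precursor cutting and also takes part in splicing. It was above the floor on all 3 arrays, at 219 in DRB2 and 263 in DRB3 overexpressor seedlings, against 241 in wild type. Wild type lay between the overexpressors. The log2 ratio to wild type was -0.14 for the DRB2 overexpressor and 0.12 for the DRB3 overexpressor, and that of the DRB3 to the DRB2 overexpressor was 0.26. A ratio at least as high as the last was found for 12.0% of all named genes, including those under the floor on every array, whose ratio is 0.

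The wider list of small RNA machinery had 38 genes, of which 6 were measured, and none of the 6 passed 2-fold in any comparison. Besides AGO7 and SE they were TGH, DDL, SQN and AT5G21030. AGO7, SQN and AT5G21030 read too low on every array to reach 2-fold over the floor. DDL, for a forkhead-associated domain protein that assists precursor processing, read 315 in DRB2 and 304 in DRB3 overexpressor seedlings, against 415 in wild type. The log2 ratios of DDL were -0.40 and -0.45. TGH, for a G-patch protein that binds microRNA precursors, read 254 and 231 in the overexpressors of DRB2 and DRB3, against 316 in wild type, with log2 ratios of -0.32 and -0.45. Both overexpressor arrays were thus below the wild-type array for DDL and TGH, under 2-fold. SE, which also acts in precursor cutting, was below wild type in the DRB2 overexpressor alone. AGO7 was above the floor in the overexpressors alone.

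SQN encodes a cyclophilin that promotes the loading of Argonaute proteins. It read 135 in the DRB2 overexpressor, 92.5 in the DRB3 overexpressor and 111 in wild type, values on both sides of the floor. Its log2 ratio was 0.28 for the DRB2 overexpressor and -0.03 or lower for the DRB3 overexpressor, and its other probe set was not used. AT5G21030 was under the floor throughout, at 17.5 and 18.2 in the overexpressors of DRB2 and DRB3 and 21.9 in wild type. A pair of further pathway genes was added after the probe table had been read. SIC, required for the accumulation of a subset of microRNAs, read 186 in the DRB2 overexpressor, 152 in the DRB3 overexpressor and 197 in wild type. THO1, a subunit of the THO complex that packages messenger RNA for export and takes part in making some small RNAs, read 305, 353 and 348 in the same order. Over these 8 measured genes, AT5G21030 taken as 0, the median log2 ratio was -0.11 for the DRB2 overexpressor and -0.02 for the DRB3 overexpressor, against a median of 0 over all named genes in both.

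SNZ and SMZ encode AP2-type transcription factors that delay flowering and are held down by microRNA172. SNZ read 72.0 in DRB2 and 56.1 in DRB3 overexpressor seedlings, against 195 in wild type. It was above the floor on the wild-type array alone, a pattern it shared with 142 other genes. SNZ was at least 1.79-fold lower in each overexpressor than in wild type, a floored log2 ratio of -0.84 or lower.

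The bound for SNZ depends on the floor. With the floor at percentile 20, an intensity of 26.7, the log2 ratios were -1.44 for the DRB2 overexpressor and -1.80 for the DRB3 overexpressor, past 2-fold, where 1.21% and 2.99% of all named genes were at least 2-fold lower. With the floor at percentile 60, an intensity of 302, every reading of SNZ was under it and no ratio can be given.

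SMZ, the close relative of SNZ, had no reading above the floor. It read 108 in the DRB2 overexpressor, just under the floor, 86.9 in the DRB3 overexpressor and 90.2 in wild type. No order and no fold can be given for values under the floor. The other 4 microRNA172 targets, AP2, TOE1, TOE2 and TOE3, were not among the named probe sets.

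APS4 encodes an ATP sulfurylase, the plastid enzyme that activates sulfate at the entry of its assimilation, and microRNA395 cuts its transcript when sulfate is short. It read 1923 in DRB2 and 1922 in DRB3 overexpressor seedlings, against 1037 in wild type. Both overexpressors were above wild type and nearly equal to each other, with a log2 ratio of DRB3 to DRB2 of -0.0012 whose sign turned with the scaling. The fold over wild type was 1.86 for DRB2 and 1.85 for DRB3, log2 ratios of 0.89 and 0.89. Ratios at least as high were found for 0.869% of all named genes in the DRB2 comparison and 1.95% in the DRB3 comparison. Those shares include genes under the floor on every array, whose ratio is 0, and would be larger among the 7766 others.

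APS3, another ATP sulfurylase gene and microRNA395 target, did not share that pattern. It read 932 in DRB2 and 780 in DRB3 overexpressor seedlings, against 870 in wild type, with log2 ratios of 0.10 and -0.16. SIR, for the sulfite reductase that acts later in the same pathway and is not on the list of microRNA395 targets, read 3704 and 3475 in the overexpressors of DRB2 and DRB3, against 4273 in wild type. Its log2 ratios were -0.21 and -0.30. Of 27 listed genes of sulfate uptake and assimilation these 3 were measured, none passed 2-fold, and APS4 alone was higher than wild type on both overexpressor arrays.

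At a threshold of 1.5-fold, 2 of the 5 genes passed in each comparison with wild type, APS4 higher and SNZ lower. AGO7 and SMZ read too low to reach 1.5-fold over the floor. Of all named genes, 6.31% passed 1.5-fold for the DRB2 overexpressor and 10.9% for the DRB3 overexpressor. No member passed 1.5-fold between the overexpressors, where 6.73% of all named genes did. SNZ could not pass there either, being under the floor on both overexpressor arrays.

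**Figure D2:**
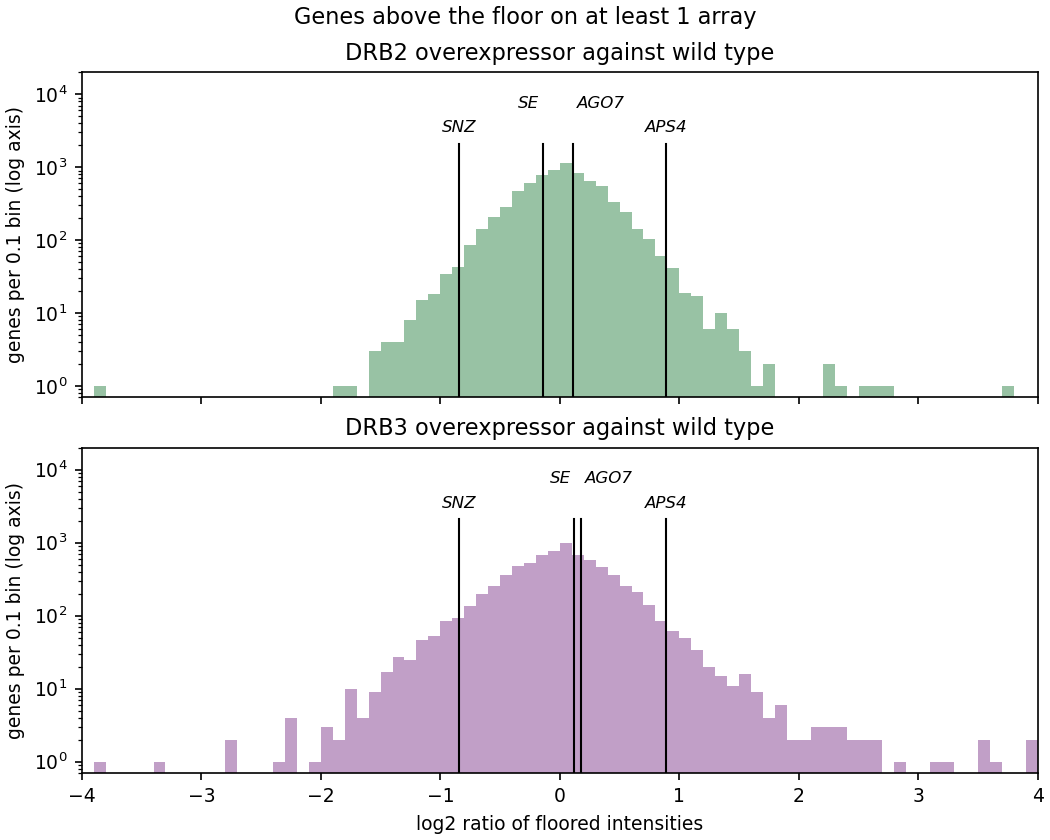
Number of genes (log axis) per 0.1 of the log2 ratio of floored intensities, for 7766 genes with at least 1 reading above the floor, in the DRB2 (top) and the DRB3 (bottom) overexpressor against wild type. The outermost bins include genes beyond the axis. Vertical lines mark 4 of the 5 genes. SNZ at -0.84 (a bound) and APS4 at 0.89 stand in the flanks of both distributions, and SE and AGO7 near the centre.

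Of 55 listed targets of other microRNAs, 4 were measured, and none passed 2-fold. AGL16, a MADS-box gene targeted by microRNA824, read 375 in DRB2 and 522 in DRB3 overexpressor seedlings, against 553 in wild type. Its log2 ratio was -0.56 for DRB2 and -0.08 for DRB3, so the DRB2 overexpressor array was the low one. CCS, for the copper chaperone of superoxide dismutase and a target of microRNA398, read 342 and 371 in the overexpressors of DRB2 and DRB3, against 467 in wild type, log2 ratios of -0.45 and -0.33.

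PHV, a homeodomain gene for leaf polarity targeted by microRNA165 and microRNA166, read 553 in DRB2 and 544 in DRB3 overexpressor seedlings, against 647 in wild type. LCR, an F-box gene of leaf shape targeted by microRNA394, read 815 and 760 in the same order, against 855 in wild type. All 4 of these targets were below wild type on both overexpressor arrays, and the direction held with each array centred, after quantile normalization and after the loess correction. Among the 7766 genes with a reading above the floor, 3619 had a ratio below 0 for DRB2 and 3774 for DRB3, with 4027 and 3765 above 0. How many of them were below wild type on both overexpressor arrays was not counted. The shared wild-type array enters every one of these ratios.

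ARPN, which encodes the small copper protein plantacyanin and is a target of microRNA408, was added after the probe table had been read. It read 319 in DRB2 and 408 in DRB3 overexpressor seedlings, against 264 in wild type, log2 ratios of 0.27 and 0.63. ARPN and CCS, both copper-linked targets, thus lay on opposite sides of wild type. Over the 9 measured microRNA targets, SMZ taken as 0, the median log2 ratio was -0.07 for the DRB2 overexpressor and -0.16 for the DRB3 overexpressor, against 0 over all named genes. For DRB3 against DRB2, SNZ and SMZ both taken as 0, it was 0, and AGL16 had the highest ratio of the 9, 0.48.

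**Figure D3:**
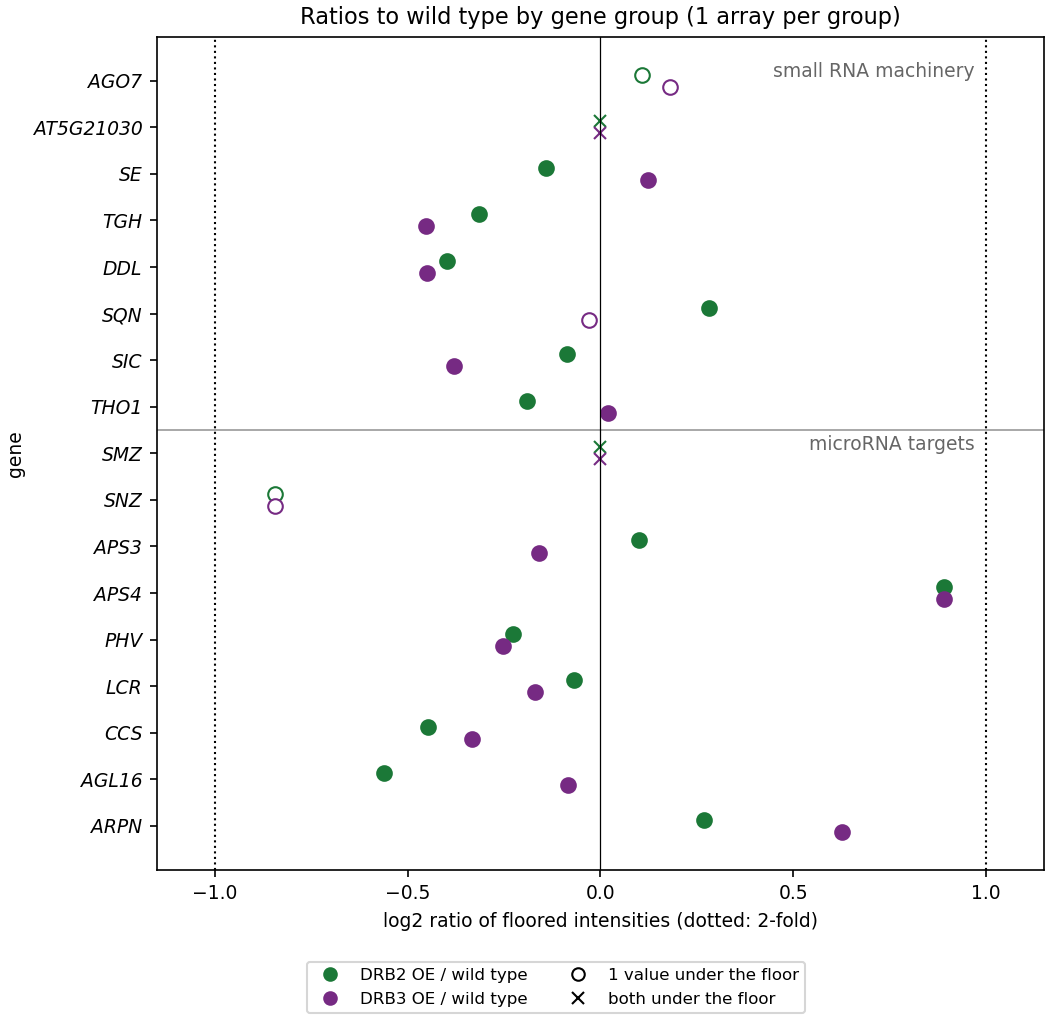
Log2 ratio of floored intensities to wild type for the measured small RNA machinery genes (8 genes, top) and microRNA targets (9 genes, bottom), for the DRB2 overexpressor (green) and the DRB3 overexpressor (purple), 1 array per group. Open points have 1 value under the floor, crosses have both under it, and dotted lines mark 2-fold. No point passes 2-fold, and APS4 and SNZ lie farthest from 0.

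Genes of flowering time that act after or beside SNZ and SMZ were read from a list of 19, of which 5 were measured. GI, a clock gene that promotes flowering and microRNA172 in long days, read 290 in DRB2 and 449 in DRB3 overexpressor seedlings, against 197 in wild type. It rose 2.28-fold in the DRB3 overexpressor and had a log2 ratio of 0.56 in the DRB2 overexpressor. With the floor at percentile 60 the ratio for DRB3 was at least 0.57, under 2-fold. AGL24, a MADS-box promoter of flowering, read 188 in DRB2 and 90.1 in DRB3 overexpressor seedlings, against 125 in wild type, so the overexpressors lay on opposite sides of wild type. FY had log2 ratios of 0.44 and 0.03 and LD of 0.06 and 0.22 for DRB2 and DRB3, the 0.06 turning below 0 with each array centred, and FD had no reading above the floor.

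The genes whose 3 values ran most like those of a member were sought among genes above the floor on the same arrays, by the Euclidean distance of the floored log2 values centred on their mean. For APS4 they were AT5G10040, at a distance of 0.012, and AT5G25930, at 0.020, among 6778 genes, of which 15 lay within 0.1. For SE they were TRZ3, at 0.0066, and AT2G01100, at 0.0078, and 385 of 6778 genes lay within 0.1. Fewer genes thus lay this near to APS4 than to SE, but ratios as large as those of APS4 are rarer among all genes. For AGO7 they were AT1G03740 and AT5G44500, at 0.0099 and 0.034 among 202 genes, whose wild-type values were all raised to the floor. For SNZ they were AT5G59670 and TRY, at 0.0085 and 0.035 among 142 genes, but there both overexpressor values stood at the floor for every gene, so the distance compares the wild-type values alone. With 3 arrays such likeness is only a description.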

How the data were processed

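The authors deposited linear MAS5 intensities (per the submitters' processing notes), with 1 value for each probe set on each array. Version and settings of MAS5: not given in the sources used here. Biotinylated cRNA was made from 10 ug of total RNA, per the labels' protocols. Each array had a 2% trimmed mean of 500.05, and values were used without further scaling. Precision is limited by the number of arrays.

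Of 22810 probe sets, 64 were controls, 13513 had 1 gene in the gene table, 503 had several and were not used, and 8794 were unnamed here. For each gene the probe set with the highest mean was kept, giving 13356 genes, of which 13286 matched a RefSeq gene table (TAIR10.1). The floor was percentile 40 of each array's non-control probe sets, averaged over the arrays. With 1 array per group no test was run. The fold calls were checked on simulated data, with changes of 1 size, well past 2-fold, planted only in genes well above the floor. The noise between arrays was assumed, as there were no replicates to measure it. That check does not show whether changes under or near 2-fold, or in genes near the floor such as AGO7, SNZ and SMZ, would be found.

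The members, lists and thresholds were chosen with earlier results of these data known. Named were the members, genes past 2-fold in the small RNA, microRNA target and sulfate lists, up to 3 further genes of each of these lists with the largest ratios, and the 2 nearest genes to each member. AT5G21030, LCR, SIC, THO1, ARPN, GI, AGL24, FY, LD, FD, EXPA7, EXPA18 and AT2G04460 were named outside that rule, after their values were seen. Alternatives were other floors (percentile 20 and 60), a pseudocount of 16, centring, quantile normalization, loess (span 0.3), averaging the probe sets of each gene, other thresholds and, added after seeing the data, no floor at all. The tools were statsmodels 0.14.6, scipy 1.17.1, numpy 2.4.6 and pandas 2.3.3 under Python 3.11.15, with matplotlib 3.10.9 for figures.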

Additional observations from a re-analysis of the deposited data

Results flagged for a closer look

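For 5 genes of the members and lists above, the overexpressors lay on opposite sides of wild type. Each rests on 1 array per group, so the difference between the overexpressors was not tested. How many of all named genes do the same was not counted, so the number sets these genes apart in no way. The log2 ratio of the DRB3 to the DRB2 overexpressor was 0.26 for SE, -0.31 or lower for SQN (DRB3 overexpressor under the floor), -0.26 for APS3, -0.79 or lower for AGL24 (DRB3 overexpressor under the floor) and 0.21 for THO1. The ratio of THO1 to wild type in the DRB3 overexpressor was 0.02 and that of SQN -0.03 or lower, so these sides are set by very small differences. On floored values none of these 5 ratios passed 2-fold, but that of AGL24 is a bound and reached -1.07, past 2-fold, with the floor at percentile 20.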

How the results depend on the processing

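With the floor at percentile 20, with a pseudocount of 16 and no floor, and with neither, 1 of the 5 genes, SNZ, was at least 2-fold lower in each comparison with wild type, and at 1.5-fold 2 passed. The log2 ratios of SNZ were -1.26 and -1.55 with the pseudocount and -1.44 and -1.80 with neither, for DRB2 and DRB3. These 8 of 120 recomputed member ratios moved by over 1.5-fold or across the 2-fold line, all of SNZ. They count the floor at percentile 60, where SNZ has no ratio. Part of the 120 could not move: each member has 1 probe set to average, and SMZ was under the floor in most settings. The ratio of APS4 to wild type ran from 0.83 to 0.91 for DRB2 and from 0.88 to 0.90 for DRB3 over all settings. Counts of genes, given for DRB2 against wild type, DRB3 against wild type and DRB3 against DRB2, were 591, 769 and 568 with the floor at percentile 20, 53, 205 and 62 at percentile 60, 941, 1020 and 871 with the pseudocount, 843, 1457 and 899 at 1.5-fold, and 13, 78 and 21 at 3-fold. Lower floors admit weak probe sets, so these counts follow from the setting. With neither floor nor pseudocount 20.2%, 21.8% and 20.2% of genes passed 2-fold. No paired analysis was possible because each group has 1 array. Signal over background limits AGO7, SNZ, SMZ and SQN, which lie near or under the floor.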

Other observations

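Small RNAs also silence transposons and related sequences, many of which are annotated as pseudogenes. Of 989 named genes annotated so, 28 were above the floor on at least 1 array. At most these 28 could pass 2-fold, as that also takes a reading at least 2-fold over the floor. None did in the DRB2 or the DRB3 overexpressor against wild type, where 126 and 397 of the 7766 genes with a reading above the floor did. In the DRB3 against the DRB2 overexpressor 1 did, against 159 of the 7766. That gene, AT2G04460, read 226 in the DRB3 overexpressor and 609 in the DRB2 overexpressor, with 370 in wild type between them. With 961 of the 989 under the floor on every array, changes in weak transcripts were not detectable here.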
